A study of Mus musculus with 10 samples.

Results

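The genes of the Wnt pathway were followed in single Bergmann glial cells of the mouse cerebellum: secreted Wnt ligands, the proteins that release them, their receptors, their secreted antagonists, and the cytoplasmic and nuclear proteins that carry the signal. Members were chosen by a rule on gene symbols, with earlier results of these data known. The rule took every Wnt, Fzd, Sfrp, Dkk (with Dkkl1), Dvl and Axin gene and every gene whose symbol begins with Tcf7, together with Lrp5, Lrp6, Lef1, Ctnnb1, Apc, Gsk3a, Gsk3b, Wif1, Porcn and Wls. This gave 56 of the 17927 genes that had a complete set of values. They were measured by 114 probe sets, and 2 further probe sets of Tcf7l2 and Wls each held a value in a single P30 cell and were left out. All 56 genes are accounted for below, since no filter on low values was applied.

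The cells came from GFAP-GFP mice, in which the promoter of Gfap, an astroglial intermediate filament gene, drives green fluorescent protein. There were 5 cells from mice at postnatal day 30 (P30) and 5 cells from mice at postnatal day 6 (P6), each hybridised as amplified cDNA to its own Affymetrix Mouse Genome 430 2.0 array. According to the study's methods, single cells were picked by strong fluorescence and a bushy unipolar shape from dissociated mid-sagittal cerebellum, and their cDNA had to show astroglial and lack neuronal transcripts by PCR before it was hybridised. The labels name no further allele and no agent, so the reporter is what both ages share. The animals behind the cells are not named, so each age counted as 1 sample: standard deviations below describe the spread between 5 cells, and no p-value is given.

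Wnt proteins are lipid-modified secreted ligands that bind Frizzled (Fzd) receptors. With the co-receptors Lrp5 and Lrp6 they recruit Dishevelled (Dvl) and hold back a cytoplasmic complex of Axin, Apc and Gsk3 that otherwise marks beta-catenin (Ctnnb1) for degradation, and stabilised beta-catenin enters the nucleus and works with the TCF/LEF family of DNA-binding proteins. Other Wnt signals run through Fzd and Dvl without beta-catenin and shape cell polarity and movement. Bergmann glia are the unipolar astroglia of the Purkinje cell layer, whose radial fibres guide migrating granule neurons in the young cerebellum and later ensheath Purkinje cell synapses.

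The deposited values were ratios, with each array divided by its own 50th percentile and each probe set by a median. In 69.5% of complete probe sets the median of the P6 cells was exactly 1, and in those probe sets a log2 ratio near 0 means a value close to that of the middle P6 cell. The ratios carry no level: genes cannot be ranked by abundance, and a gene that was not detected at either age cannot be told from one that was. Of the marker lists, 17 of 20 astroglial genes were higher at P30 (median log2 difference 0.38), though their median log2 ratio was -0.38 in P30 replicate 5, against 0.31 to 0.56 in the other P30 cells and -0.41 to 0.21 in the P6 cells. The endothelial and pericyte list of 11 genes had a median log2 ratio of 4.78 in P30 replicate 5, with 10 genes more than 1 log2 unit above the median of the other P30 cells. The list's median ranged from -0.90 to 0.07 in the other P30 cells and from -0.20 to 0.02 in the P6 cells. The same P30 cell was the highest for Purkinje neuron genes (median log2 ratio 2.11, with 4 of 7 genes that far above), followed by P30 replicate 2 (0.95). General neuronal genes peaked in P6 replicate 5 (1.05), with 8 of 13 genes more than 1 log2 unit above the median of the other P6 cells. Granule neuron genes lay that far above in 4 of 9 cases in P30 replicate 5. Oligodendrocyte lineage genes did so in 5 of 11 cases in P6 replicate 5. Of all 17927 genes, 3252 lay that far above in P30 replicate 5 and 3299 in P6 replicate 5. Without these 2 cells, the 9 Wnt genes named next as over 3-fold kept their direction and stayed over 3-fold.

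Taken as a list, the Wnt genes stood close to the rest of the array. Sfrp1, a secreted Wnt-binding antagonist, and the ligand Wnt6 were over 3-fold higher at P30, which is 2 of 56 genes (3.57%) beside 4.93% of all genes. The kinase gene Gsk3a, the Dishevelled genes Dvl1 and Dvl2, the ligand Wnt5a, the receptor Fzd9, the antagonist Dkk2 and the transcription factor gene Tcf7l1 were over 3-fold higher at P6, which is 7 genes (12.5%) beside 9.39% of all genes. The remaining 47 genes differed by less than 3-fold. The genes divided evenly, 28 higher and 28 lower at P30, and their median log2 difference was -0.01 beside -0.05 over all genes. The plot of cumulative shares shows the same closeness along the whole range of differences.

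**Figure D1:**
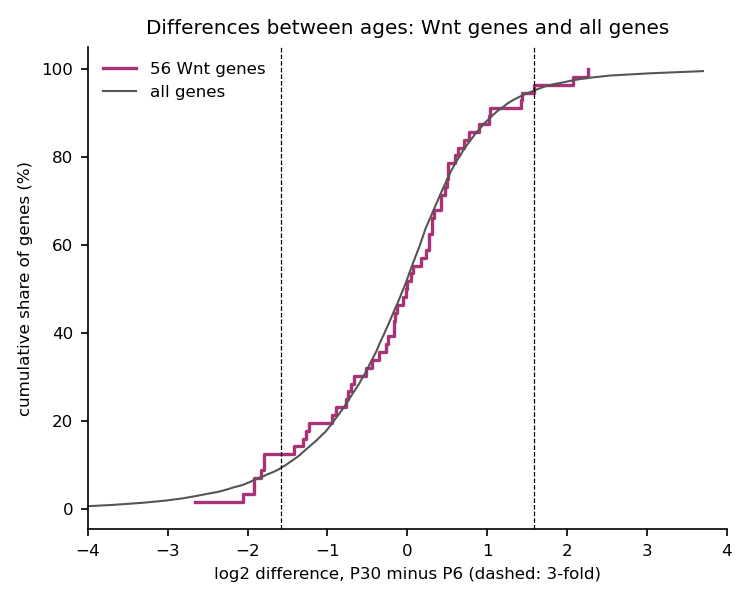
Cumulative share of genes (%) against the log2 difference of mean ratios, P30 minus P6, for the 56 Wnt genes (stepped line) and all 17927 genes (grey line), with dashed lines at 3-fold. The Wnt line stays near the line of all genes, with medians of -0.01 and -0.05.

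The roles differed more than the list as a whole. The 9 cytoplasmic effectors had a median log2 difference of -1.23 and 7 of them were lower at P30. The 12 receptors had a median of 0.39, with 8 higher at P30. Of all 17927 genes, 9390 were lower and 8537 higher at P30. The ligands (19 genes, median -0.01) and the antagonists (10 genes, median 0.02) spread to both sides. Of the 3 nuclear effectors, 3 were lower at P30, with a median of -0.67, though Lef1 was higher with median scaling. Dividing each array by the median of its complete probe sets moved all differences by 0.16 and scaling to the hybridisation spikes moved them by -0.28, so that the ligands' median became 0.14 and -0.29 and the antagonists' 0.18 and -0.25, while the cytoplasmic effectors stayed lower (-1.07 and -1.50) and the receptors higher at P30 (0.55 and 0.12). With spike scaling, 7 receptors were higher and 5 lower at P30. The spread between cells was wide throughout. The difference reached the pooled SD between cells of an age in 16 genes (28.6%, beside 27.3% of all genes), and Dvl2 was the 1 gene whose P30 and P6 cells did not overlap, against 2.13% of all genes with every P6 cell above every P30 cell.

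**Figure D2:**
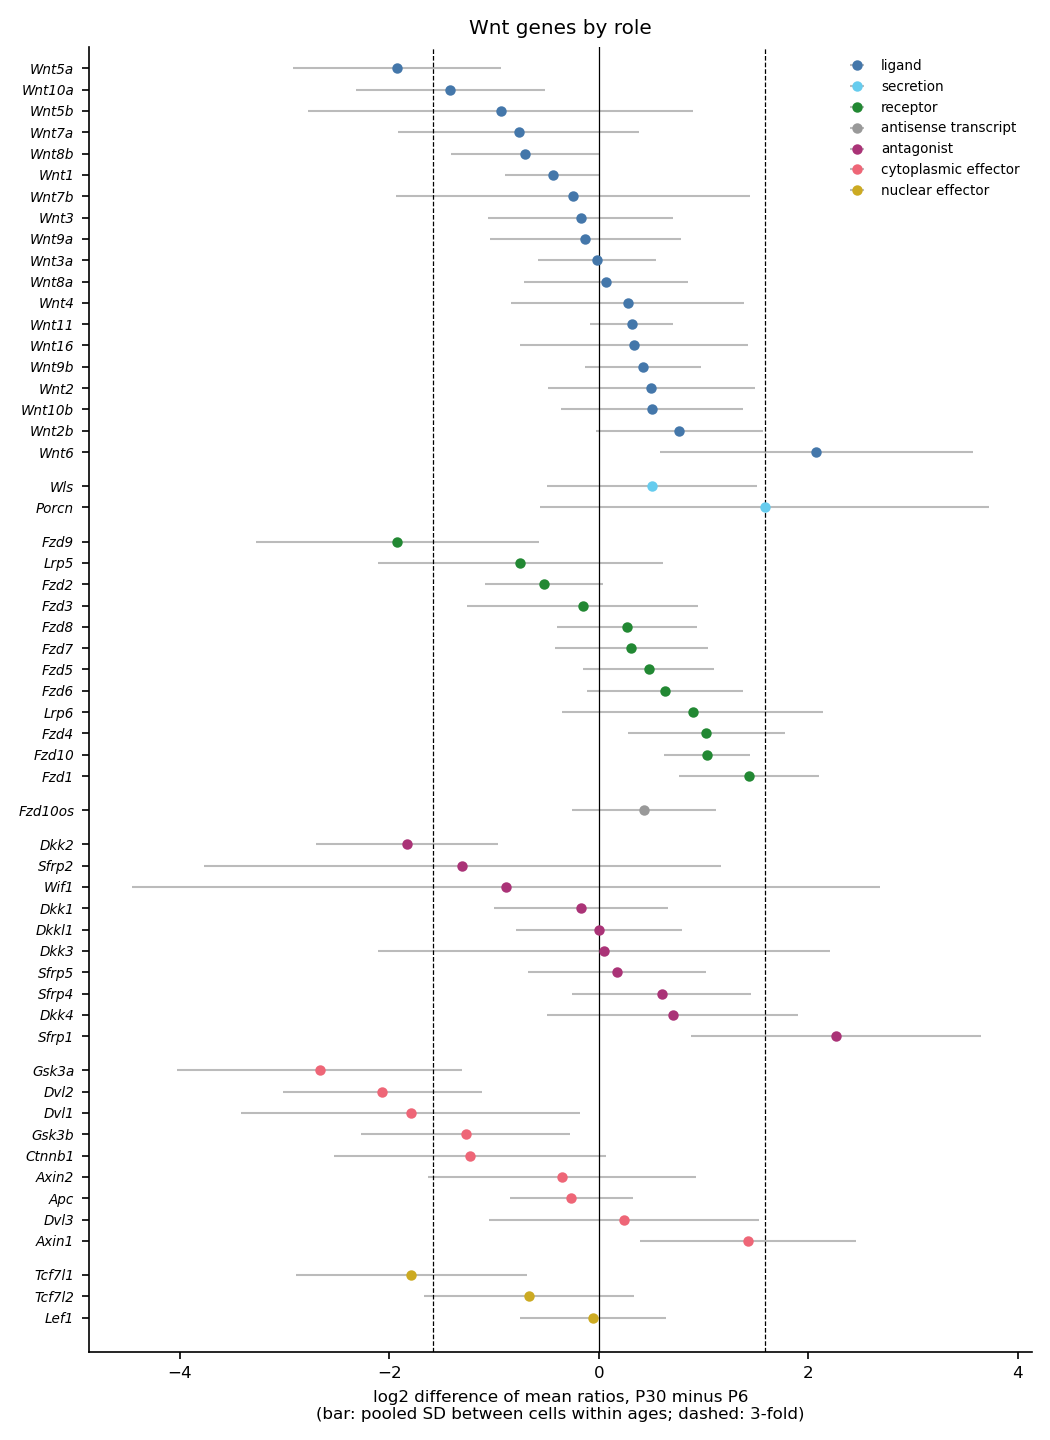
Log2 difference of mean ratios, P30 minus P6, for each of the 56 Wnt genes, grouped and coloured by role, with bars of 1 pooled SD between the cells of an age and dashed lines at 3-fold. Among cytoplasmic effectors 7 of 9 points lie left of 0, and among receptors 8 of 12 lie right of 0. Of all 17927 genes (not drawn), 9390 were lower and 8537 higher at P30.

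Of the 19 ligands, Wnt5a, which acts mostly through beta-catenin-independent signalling, was the lowest at P30. Its log2 ratios were -1.15, -0.77, -3.81, -2.69 and -2.35 in P30 replicates 1 to 5, against -0.97, 0.84, -0.32, -0.64 and -0.06 in P6 replicates 1 to 5. The mean was 3.80-fold lower at P30 (-2.16 ± 1.22 in P30 cells and -0.23 ± 0.69 in P6 cells, SD, n = 5 each). Every P30 cell but replicate 2 lay below every P6 cell, replicate 1 by a narrow margin. The 4 Wnt5a probe sets were each lower at P30, with log2 differences between -4.05 and -0.28. The widest of these differences came from 1436791_at, which stood at the floor of 0.01 in P30 replicates 3 and 4. Without probe sets that touched the floor, with a floor of 0.1, or without P30 replicate 3, the difference of Wnt5a was under 3-fold.

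Wnt6, a ligand best known from surface ectoderm and other epithelia, was 4.22-fold higher at P30. It had log2 ratios of 1.81, 4.88, 3.06, -0.36 and 0.68 in P30 cells, against 0.56, -0.08, -0.46, 0.35 and -0.69 in P6 cells. Averaged over both probe sets, the 5 P6 cells were close together, and 4 P30 cells lay above them, with P30 replicate 4 inside their range. In 1419708_at alone the P6 cells ran from -0.76 to 1.76. Both probe sets were higher at P30 (1.29 and 2.87), but 1435980_x_at, whose ending marks probes shared with other sequences, held the single largest value, 8.04 in P30 replicate 2. Leaving out that cell or that probe set brought Wnt6 under 3-fold.

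The other 17 ligands differed by less than 3-fold. Wnt10a, a ligand of tooth and hair development, came next in size among those lower at P30 (-1.42). Its P30 cells kept to a narrow range from -2.31 to -1.30, whereas its P6 cells ran from -2.36 to 0.74, and P6 replicate 1 alone reached the level of the P30 cells. Wnt5b, a close relative of Wnt5a, differed by -0.94, with P30 replicate 3 at 0.56 and the other P30 cells between -2.19 and -1.43. Its P6 cells were between -2.53 and -0.65 except for replicate 5 at 3.68, the cell with the highest general neuronal list, and without P6 and P30 replicates 5 the difference was 0.30. The part of the neuronal transcripts in that value was not tested.

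Wnt1, the organiser signal from which the midbrain and cerebellar territory develops, differed by -0.44 and varied little (pooled SD 0.45). Wnt11, a ligand of cell movement, had the smallest spread of the list, with a pooled SD of 0.39 and a difference of 0.31. Wnt3a, which activates beta-catenin signalling in many assays, differed by -0.01, and 4 of its 5 P30 cells lay between 0.11 and 0.27, with replicate 1 at -1.30. Wnt3, its near relative, likewise had 4 P30 cells between 0.06 and 0.46 and replicate 2 at -1.78, for a difference of -0.17. Wnt7a, known in the cerebellum as a granule neuron signal to incoming mossy fibres, differed by -0.76, and Wnt7b by -0.25. The ligands Wnt2b (0.77), Wnt10b (0.51), Wnt2 (0.50), Wnt9b (0.43), Wnt16 (0.34), Wnt4 (0.28) and Wnt8a (0.07) were higher and Wnt8b (-0.71) and Wnt9a (-0.13) lower at P30, each with overlapping cells.

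Wnt release depends on Porcn, the acyltransferase that attaches the lipid, and Wls, the carrier that takes the modified ligand to the cell surface. Porcn was the gene nearest to the 3-fold line without crossing it, at a log2 difference of 1.58. Cell by cell, the log2 ratios were 2.26, 2.78, 2.74, -1.49 and 0.24 in P30 cells, against 0.00, 1.46, -4.23, 1.69 and -0.32 in P6 cells. P30 replicates 1 to 3 were above every P6 cell, P30 replicates 4 and 5 were not, and P6 replicate 3 lay far below the rest, which gave a pooled SD of 2.14. The difference of Porcn was 0.60 without P6 replicate 3, and it was over 3-fold in 8 of 19 alternative settings. Among the genes lower at P30, Dvl1 and Tcf7l1 were past the 3-fold line by a small margin, each at -1.79. Wls differed by 0.51, and its 3 probe sets disagreed in direction (-0.27 to 1.41).

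Among the 12 receptors, Fzd9, a Frizzled of brain and bone, was over 3-fold lower at P30. It had log2 ratios of -1.97, -2.11, -1.81, -1.19 and -2.71 in P30 cells, against 2.39, -0.78, 0.78, -2.55 and 0.00 in P6 cells. The P30 cells were close together, and 4 P6 cells lay above them while P6 replicate 4 lay among them. The mean difference of 3.80-fold rested on 1 probe set, and without P6 replicate 1 it was under 3-fold.

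The receptors higher at P30 were led by Fzd1, at 2.70-fold. Fzd1 had log2 ratios of 2.02, 1.22, 1.85, 0.94 and 2.25 in P30 cells, against -0.25, 0.22, -0.13, 1.55 and -0.27 in P6 cells. P6 replicate 4 alone reached into the P30 range, and without it Fzd1 was over 3-fold apart with no overlap. Most of the difference came from 1422985_at (2.41), which was highest in P30 replicate 5 at 4.46, while 1437284_at differed by 0.45.

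Fzd10 had 1 of the narrowest spreads of the list (pooled SD 0.41), though its 2 probe sets had pooled SDs of 0.77 and 0.65 singly. Its log2 ratios were 0.80, 0.66, 0.56, 0.02 and 1.22 in P30 cells, against -0.30, -0.98, -0.26, 0.09 and -0.43 in P6 cells. The ages overlapped in the pair of P30 replicate 4 and P6 replicate 4. In 1440182_at every P30 cell lay above every P6 cell, with a difference of 1.46, and all probe sets together had this pattern in 1.21% of cases. Fzd10os, a transcript from the strand opposite Fzd10, differed by 0.43, with P30 cells between -0.90 and 0.70 and P6 cells between -1.18 and 0.51.

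Fzd4, the receptor shared by Wnt ligands and norrin in blood vessels, differed by 1.03. As a mean of 3 probe sets, its P6 cells kept within -1.07 to -0.67 and its P30 cells ran from -0.98 to 1.80, with the peak in replicate 3. The probe sets were each higher at P30 but correlated at r of -0.42 to -0.05, and their P6 SDs ran from 1.36 to 2.41. In P30 replicate 3, 1419301_at stood at 6.87, against -1.88 and 0.42 in the others. In P30 replicate 5, the cell with the high endothelial list, Fzd4 stood at -0.31. Lrp6, the co-receptor that docks Axin after Wnt binding, differed by 0.89, and its P6 cells (-0.17 to 0.65) lay below 4 P30 cells (0.85 to 2.70) and above P30 replicate 4 (-1.69). The 2 Lrp6 probe sets went opposite ways, with r of 0.05 over the cells. Of these, 1428500_at differed by -0.35, with P6 cells from -1.45 to 1.84, and 1451022_at differed by 2.14. The latter was highest in P30 replicate 5, at 4.78. The part of endothelial or Purkinje transcripts in the high values of Fzd1 and Lrp6 in that cell was not tested.

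Fzd6, a Frizzled of hair and axon patterning, differed by 0.63 as the mean of probe sets at -0.54, -0.31 and 2.76. Fzd3, which guides axon tracts together with planar polarity proteins, differed by -0.15 but had a shared pattern among 3 of its 6 probe sets. These 3 probe sets correlated with r of 0.86 to 0.91 over 10 cells, and each was high in P30 replicate 2 (2.95 to 4.70) and in P6 replicate 4 (2.61 to 4.20). The other 3 probe sets correlated with them at r of 0.48 or less, and 1438101_at had a value of 8.21 in P30 replicate 3 alone. Smaller differences were found for Fzd5 (0.48), Fzd7 (0.31) and Fzd8 (0.27), which were higher, and for Fzd2 (-0.52) and the co-receptor Lrp5 (-0.75), which were lower at P30.

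Of the 10 antagonists, Sfrp1, a soluble Frizzled-related protein that binds Wnt ligands, had the largest difference among those of the 56 genes that were higher at P30. Its log2 ratios were 1.54, 2.16, 1.17, 1.50 and 1.30 in P30 cells, against -1.79, -2.23, 1.38, -2.35 and 1.33 in P6 cells. Averaged over 5 probe sets, the P30 cells were alike (SD 0.38), and the P6 cells fell into 3 low cells and 2 cells, replicates 3 and 5, that reached the P30 range. In single probe sets the P30 cells spread more widely, with SDs from 0.78 in 1448395_at to 1.56 in 1438620_x_at. The mean was 4.81-fold higher at P30 (1.53 ± 0.38 in P30 cells and -0.73 ± 1.92 in P6 cells, SD, n = 5 each).

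The 5 Sfrp1 probe sets were all higher at P30, by 0.47 to 3.50 log2 units. In 1416594_at the 5 P30 cells, from 2.06 to 5.86, lay above the 5 P6 cells, from -1.23 to 1.33. The high state of P6 replicates 3 and 5 was shared by 1448395_at (4.80 and 3.82), 1428136_at (2.74 and 2.11) and 1438620_x_at (0.49 and -0.75), the last with the other P6 cells at the floor. 1448395_at and 1438620_x_at correlated with r of 0.97 over the 10 cells, though both belong to 1 gene and may share transcript sequence. The highest value of 1416594_at came from P30 replicate 5, and the difference of Sfrp1 without P30 replicate 5 was 2.32. With arithmetic in place of geometric means, Sfrp1 was under 3-fold, at a log2 difference of 1.36.

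Dkk2, a Dickkopf protein that binds Lrp5 and Lrp6 and can act for or against the signal, was 3.55-fold lower at P30. It had log2 ratios of -1.45, -2.23, -1.68, -2.27 and -0.76 in P30 cells, against -1.23, 1.43, 0.00, 0.94 and -0.39 in P6 cells. The ages overlapped through P30 replicate 5, the highest P30 cell, and P6 replicate 1, the lowest P6 cell. It rested on 1 probe set, and without P6 replicate 2 the difference was under 3-fold.

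Some antagonists varied widely between cells of the same age. Wif1, a secreted Wnt inhibitory factor, had a pooled SD of 3.57, higher than that of 99.6% of all genes. The log2 ratios of Wif1 were -6.64, 1.28, -6.64, 0.28 and 0.36 in P30 cells, against 0.00, 1.08, -1.37, 0.02 and -6.64 in P6 cells. The value of -6.64 is the floor, reached in 2 P30 cells and 1 P6 cell, while the other cells of both ages were between -1.37 and 1.28. Sfrp2 had a pooled SD of 2.46 with P30 replicate 4 at -5.78 and the other P30 cells between -0.61 and 1.16. Dkk3, a divergent Dickkopf protein, had a pooled SD of 2.16 and a difference of 0.05, from probe sets at -0.88 and 0.97.

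Dkk1, a potent inhibitor that binds Lrp6, differed by -0.17, with P30 replicate 5 at -1.71 and the other P30 cells between -0.08 and 0.24. Sfrp4 differed by 0.60 and was highest among P6 cells in replicate 2 (1.82), the other P6 cells lying between -0.12 and 0.21. Dkk4 (0.70), Sfrp5 (0.17) and the Dickkopf-like gene Dkkl1 (0.00, the smallest difference of the list) completed the group. The 2 Sfrp5 probe sets differed by -0.77 and 1.11.

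The cytoplasmic effectors held the largest difference of the list. Gsk3a, which encodes the alpha form of glycogen synthase kinase 3, was 6.34-fold lower at P30, with log2 ratios of -4.50, -2.94, -0.37, -4.18 and -2.34 in P30 cells, against 0.00, -1.12, 1.24, 0.00 and -1.14 in P6 cells. Every P30 cell but replicate 3 lay below every P6 cell. The gene had 1 probe set, 1435638_at, and it stayed over 3-fold lower at P30 in 19 of 19 alternatives. With 1 probe set and no value at the floor, the alternatives that filter or average probe sets could not change it.

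Gsk3b, the beta form, differed in the same direction but by less, 2.41-fold. In single cells Gsk3b had log2 ratios of -1.61, -1.22, -3.25, -1.82 and -3.17 in P30 cells, against -1.09, -2.45, 0.43, -1.15 and -0.48 in P6 cells. P6 replicate 2 alone lay within the P30 range. Of its 6 probe sets, 3 were over 3-fold lower at P30 (-2.57 at the most) and 3 differed by -0.51 to 0.03. The probe set 1439931_at stood at the floor in 4 P30 and 3 P6 cells, so its difference came from P6 replicates 3 and 5.

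Dvl2, a Dishevelled adaptor, was 4.18-fold lower at P30, with log2 ratios of -2.16, -1.33, -0.99, -0.95 and -2.88 in P30 cells, against 0.00, -0.34, 1.90, 1.08 and -0.63 in P6 cells. The highest P30 cell lay below the lowest P6 cell. The separation came from 1417207_at, in which P30 cells were between -5.83 and -2.51 and P6 cells between -0.78 and 3.24, whereas 1448616_at had a difference of 0.22 and overlapping cells. With medians over cells in place of means, Dvl2 was under 3-fold, at -1.33.

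In Dvl1 both probe sets gave the same picture, at -1.89 and -1.70, and correlated with r of 0.92 over the 10 cells. The gene had log2 ratios of 0.01, -4.11, -2.94, -3.14 and 0.27 in P30 cells, against 0.07, -0.08, 1.06, 0.04 and -2.03 in P6 cells. P30 replicates 2, 3 and 4 were low and P30 replicates 1 and 5 were at the level of most P6 cells, so the ages overlapped and the pooled SD of 1.62 was close to the difference of -1.79. Leaving out P30 replicate 2, 3 or 4, or P6 replicate 3, brought the gene under 3-fold, as did a floor of 0.1 or arithmetic means. Dvl3 differed by 0.24.

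Ctnnb1, which encodes beta-catenin itself, was 2.34-fold lower at P30 as the mean of 3 probe sets that did not share a pattern. Single cells had log2 ratios of 0.15, 0.51, -0.15, -2.60 and 0.28 in P30 cells, against 1.85, 2.64, -0.09, 0.35 and -0.42 in P6 cells. In P30, replicate 4 stood well below the other cells. P6 replicates 1 and 2 were raised by 1430533_a_at alone (5.71 and 7.97), while 1420811_a_at and 1450008_a_at correlated with r of 0.91, were low in P30 replicate 4 (-3.04 and -4.27) and differed by -0.83 and -0.47.

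The scaffold genes Axin1 and Axin2 and the tumour suppressor gene Apc form the core of the complex that holds beta-catenin down. Axin1 was 2.69-fold higher at P30, the 1 scaffold gene in that direction, with log2 ratios of 1.48, 2.71, 1.31, 1.47 and 0.76 in P30 cells, against -0.40, -0.46, -1.43, 1.39 and 1.49 in P6 cells. P6 replicates 4 and 5 lay among the P30 cells. The difference stood in 1426966_at (3.16), while 1426967_at differed by -0.31. Axin2, a widely used transcriptional readout of beta-catenin signalling, differed by -0.35, with cells from -1.74 to 1.20 at P30 and from -1.68 to 1.73 at P6. The 2 Axin2 probe sets differed by -0.92 and 0.22. Apc differed by -0.26, while its 4 probe sets ran from -2.70 to 1.19.

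**Figure D3:**
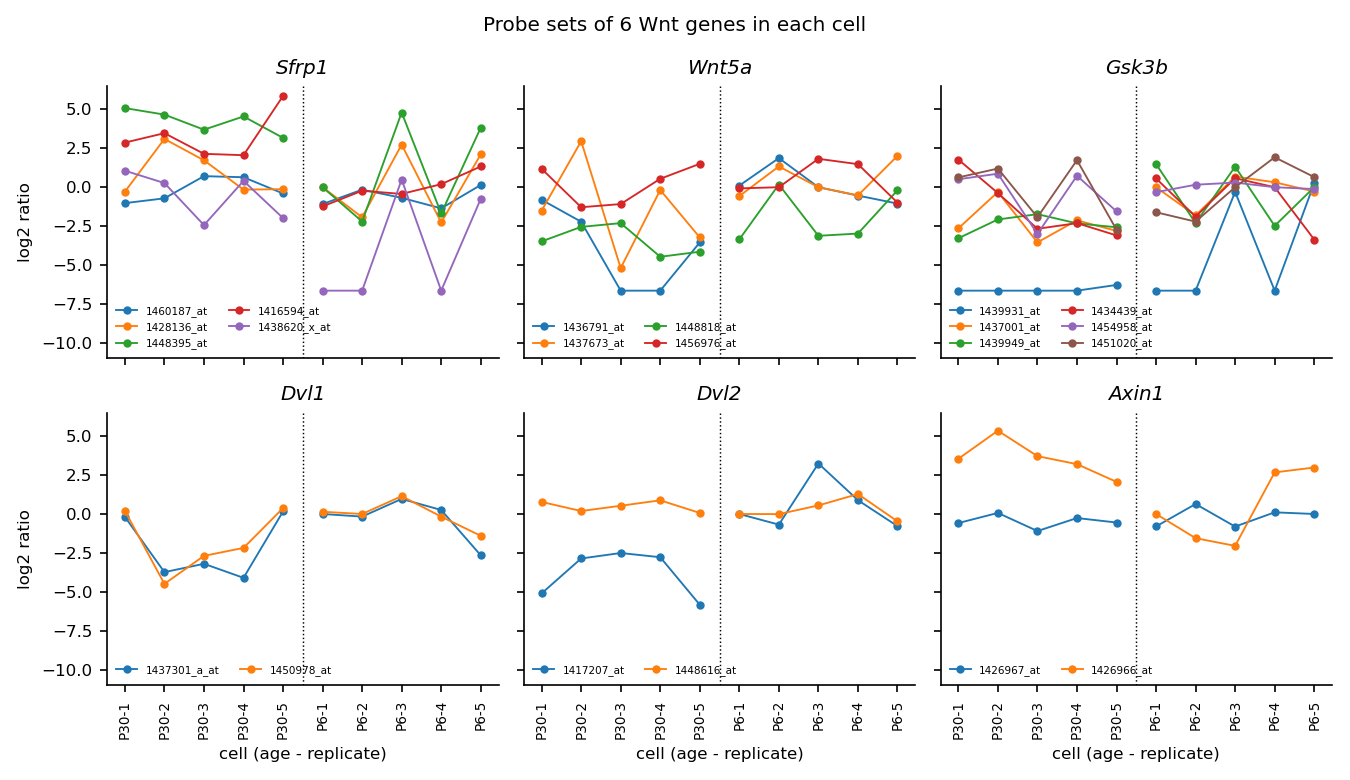
Log2 ratio of each probe set of Sfrp1, Wnt5a, Gsk3b, Dvl1, Dvl2 and Axin1 in the 5 P30 and 5 P6 cells (replicates 1 to 5 of each age, separated by a dotted line); lines join the cells of an age for each probe set and imply no order. The Dvl1 probe sets run together, those of Dvl2 and Axin1 part (differences of -4.35 and 0.22, and of 3.16 and -0.31), and points at -6.64 are at the floor.

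Disagreement between probe sets was common in the list and in the array. Of the 35 Wnt genes with several probe sets, 20 had the same direction in each of them (57.1%, beside 45.4% of 8742 genes with several), and the median range between the probe sets of a gene was 1.58 log2 units, beside 1.33 over all genes. Of the 9 genes over 3-fold, Gsk3a, Fzd9 and Dkk2 had a single probe set, Dvl2 had probe sets in opposite directions, and Sfrp1, Wnt6, Wnt5a, Dvl1 and Tcf7l1 had the same direction in each. Among single probe sets, 8 of 114 were over 3-fold higher at P30 (7.02%, beside 6.91% of all probe sets) and 17 were over 3-fold higher at P6 (14.9%, beside 12.3%).

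Among the nuclear effectors, Tcf7l1, a TCF that mainly represses its targets when beta-catenin is absent, was 3.46-fold lower at P30. It had log2 ratios of -2.21, -0.08, -1.62, -4.11 and -1.68 in P30 cells, against 0.49, -1.09, -0.12, 0.00 and -0.03 in P6 cells. P30 replicate 2 lay among the P6 cells and the other P30 cells lay below them. Both probe sets were lower at P30 (-2.30 and -1.28), the larger with P30 replicate 4 at the floor, and the gene was under 3-fold without that cell, without that probe set, with a floor of 0.1 or with arithmetic means. Tcf7l2, its relative with activating and repressing forms, differed by -0.67, with P6 replicate 1 at 1.90 and the other P6 cells between -1.02 and -0.19. The 3 Tcf7l2 probe sets had differences from -1.84 to 0.32. In P6 replicate 1, 1426639_a_at stood at 4.85, against 0.01 and 0.85 in the others. Lef1 differed by -0.05, with P30 cells from -1.34 to 0.98 and P6 cells from -0.39 to 0.58.

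**Figure D4:**
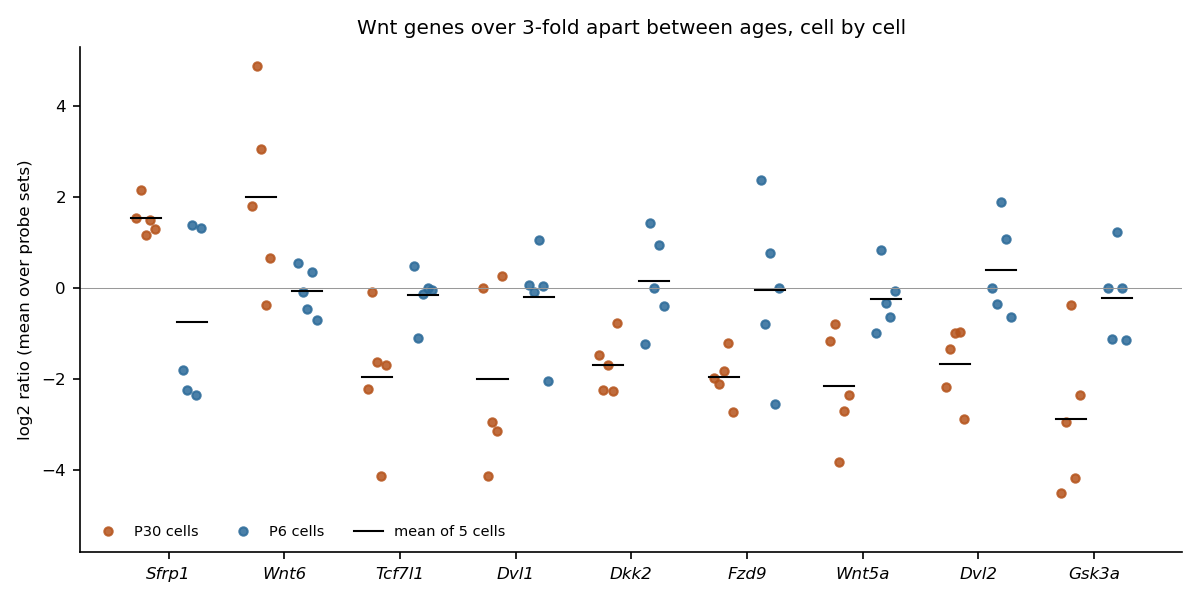
Log2 ratio (mean over the probe sets of a gene) in each of 5 P30 cells (left, orange) and 5 P6 cells (right, blue) for the 9 Wnt genes over 3-fold apart, with bars at the mean of 5 cells. Sfrp1 and Wnt6 were higher and the other 7 lower at P30, and Dvl2 is the 1 gene in which the cells of the ages do not overlap.

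TCF/LEF proteins bind a core written CTTTGAA or CTTTGAT. These letters were searched on both strands of RefSeq promoter sequences (GRCm38.p6, 250 bases before to 50 after each start), and were found in 4 of 46 promoters of Wnt genes (8.70%) and in 2842 of all 32851 (8.65%). Promoters were matched by symbol for 38 of the 56 genes, and the 4 with the core were Gsk3a, Dkk1, Wnt5b and Wnt11. The stretches around the core are shown because Gsk3a had the largest difference of the list and Dkk1, Wnt5b and Wnt11 carry a core beside differences under 3-fold. They are written along the gene's strand with the core in capitals, and lie at chr7:25237963-25238049 (minus strand) for Gsk3a, chr19:30549567-30549653 (minus strand) for Dkk1, chr6:119449411-119449497 (minus strand) for Wnt5b and chr7:98835021-98835107 (plus strand) for Wnt11, upstream of the start in each case.
Gsk3a: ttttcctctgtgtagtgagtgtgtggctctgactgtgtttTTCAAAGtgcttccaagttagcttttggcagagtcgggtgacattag
Dkk1: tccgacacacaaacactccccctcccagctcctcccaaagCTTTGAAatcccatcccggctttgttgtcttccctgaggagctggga
Wnt5b: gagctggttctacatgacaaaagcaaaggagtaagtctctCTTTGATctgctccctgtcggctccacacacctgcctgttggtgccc
Wnt11: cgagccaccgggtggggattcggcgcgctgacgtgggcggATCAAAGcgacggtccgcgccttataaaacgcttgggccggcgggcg

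In Gsk3a and Wnt11 the core reads on the opposite strand, as TTCAAAG and ATCAAAG, and in Dkk1 and Wnt5b it reads along the gene. Between the core and the start lie 151 bases in Gsk3a, 110 in Dkk1, 64 in Wnt5b and 44 in Wnt11. The log2 difference was -2.66 for Gsk3a, -0.17 for Dkk1, -0.94 for Wnt5b and 0.31 for Wnt11. A match of letters is a description of the sequence and not a binding site.

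Further genes of the pathway were read from 6 lists, of which 128 of 134 genes were measured. The lists were chosen with earlier results of these data known. Shares that differ from those of all genes may therefore come from that choice, which was not tested. Over 3-fold, 6 were higher at P30 (4.69%, beside 4.93% of all genes) and 21 were higher at P6 (16.4%, beside 9.39%). The genes higher at P6 were spread over co-receptors and planar polarity (5 of 19), the destruction complex and its regulators (8 of 28), nuclear partners of beta-catenin (4 of 25), further extracellular modulators (3 of 22) and transcriptional targets (1 of 25), and none was in the R-spondin system (0 of 9). Gpc3 was the 1 gene with every P30 cell above every P6 cell, and 7 genes (Gpc1, Ryk, Celsr1, Celsr2, Csnk1d, Csnk1e and Ccnd1) had every P6 cell above every P30 cell. These are 0.781% of the 128 genes with P30 above, beside 1.41% of all genes, and 5.47% with P6 above, beside 2.13%.

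Ccnd1, the gene of cyclin D1, which drives entry into the cell cycle and is a textbook target of beta-catenin, was 12.3-fold lower at P30. Ccnd1 had log2 ratios of -3.63, -4.17, -3.82, -4.47 and -2.49 in P30 cells, against -0.57, -1.07, 0.89, 0.10 and 0.16 in P6 cells. The ages were far apart with no overlap, and the difference kept over 3-fold in each of 19 alternatives. The other 24 measured targets were not over 3-fold apart.

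Ndp, which encodes norrin, a ligand of Fzd4 that is not a Wnt, was 18.8-fold higher at P30. Ndp had log2 ratios of 1.39, 0.46, 0.64, 1.98 and 0.07 in P30 cells, against -3.45, 0.00, 0.10, -6.64 and -6.64 in P6 cells. P6 replicates 1, 4 and 5 were low, the last 2 at the floor, and P6 replicates 2 and 3 were close to the P30 cells, so the fold depends on the floor: Ndp was 7.36-fold higher with a floor of 0.1, and 4.83-fold higher with arithmetic means. Tspan12, the tetraspanin that enhances the norrin signal through Fzd4, went the other way and was 9.04-fold lower at P30, with P30 cells between -6.64 and 0.98 and P6 cells between -0.56 and 1.22. Tspan12 was 4.46-fold lower with a floor of 0.1 and under 3-fold with arithmetic means. No value was left for Tspan12 without probe sets ending in _x_at or _s_at, nor without probe sets that touched the floor.

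Of the receptors for Wnt5a and other ligands that act without beta-catenin, Ror2 was 14.2-fold lower at P30. Log2 ratios of Ror2 were -5.49, -5.22, -5.67, -3.61 and -5.78 in P30 cells, against 0.00, -3.47, 0.97, -5.12 and 1.01 in P6 cells. The P30 cells were low together, P6 replicate 4 lay among them and P6 replicate 2 lay just above the highest of them. With a floor of 0.1 Ror2 was 5.24-fold lower. Ryk, a Wnt-binding receptor with an inactive kinase domain, was 3.88-fold lower with no overlap (P30 cells from -2.71 to -1.48, P6 cells from -1.09 to 1.05), though it was under 3-fold with medians over cells or over probe sets and without probe sets ending in _x_at or _s_at. Vangl1, a planar polarity membrane protein, was 4.02-fold higher at P30 on the strength of P30 replicates 3 and 4 (5.79 and 3.77), and without either it was under 3-fold.

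In the destruction complex list 19 of 28 genes were lower and 9 higher at P30, beside 9390 lower and 8537 higher of all 17927 genes. The list's median log2 difference was -0.30, beside -0.05 over all genes. Median scaling moved all differences by 0.16 and spike scaling by -0.28, which can change the sign of small ones. Amer2, a membrane adaptor of Apc, was 7.46-fold lower at P30, and the casein kinase genes Csnk1g3 and Csnk1g1, whose proteins phosphorylate Lrp6, were 5.28-fold and 4.75-fold lower. Amer2 had P30 cells between -6.64 and -1.27 and P6 cells between -5.12 and 0.32, so the ages overlapped. Amer2 was 4.02-fold lower with a floor of 0.1, and no value was left for it without probe sets that touched the floor. Csnk1g1 had P30 cells from -2.93 to -0.70 and P6 cells from -1.79 to 2.57, and like Csnk1g3 it was under 3-fold with a floor of 0.1. Csnk1g1 was also under 3-fold with the median over probe sets and without probe sets at the floor.

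Among nuclear partners, Ruvbl1, an ATPase of chromatin-remodelling complexes that binds beta-catenin, was 17.2-fold lower at P30. Its log2 ratios were -0.36, -6.64, -6.64, -5.44 and -4.97 in P30 cells, against -1.75, -2.39, 0.47, 0.12 and 0.00 in P6 cells. P30 replicate 1 lay among the P6 cells and the others lay well below, 2 of them at the floor. Ruvbl1 was 4.06-fold lower with a floor of 0.1 and 4.63-fold lower with arithmetic means. Cby1, a beta-catenin antagonist, was 7.40-fold lower and the acetyltransferase gene Ep300 4.31-fold lower at P30, each with overlapping cells, and Ep300 was under 3-fold with arithmetic means.

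The extracellular glypican gene Gpc1 was 4.67-fold lower at P30 with no overlap, its P30 cells between -2.59 and -1.53 and its P6 cells between -0.79 and 1.78. In the R-spondin system, which keeps Frizzled receptors on the membrane, the receptor genes Lgr6 and Lgr4 were 5.93-fold and 4.08-fold higher at P30. Lgr6 had 4 P30 cells between 2.86 and 5.07, above every P6 cell (-0.58 to 1.47), and P30 replicate 4 at -1.40. Lgr4 owed its difference to P6 replicates 2 and 5 (-3.20 and -3.85). Without P6 replicate 5 it was under 3-fold, at a log2 difference of 1.43. It was also under 3-fold with a floor of 0.1 (1.36), with medians over cells (0.54), with arithmetic means (1.58) and without both P30 replicate 5 and P6 replicate 5 (1.53). Without its probe set that touched the floor Lgr4 differed by -0.18, the opposite direction. The folds of several further pathway genes also moved by over 1.5 times when 1 cell was left out, and stayed over 3-fold. The values that follow are log2 differences. Lgr6 was at 3.63 without P30 replicate 4, which is 12.4-fold. Ruvbl1 was at -5.22 and Ep300 at -2.81 without P30 replicate 1, and Ror2 was at -4.78 without P6 replicate 4. Vangl1 was at 2.98 without P30 replicate 2, and Csnk1g1 at -1.63 without P6 replicate 2. Tspan12 was at -2.25 without P30 replicate 3 and -4.15 without P30 replicate 4. Amer2 was at -3.57 without P30 replicate 1, -2.23 without P30 replicate 4 and -3.92 without P6 replicate 2. Ndp was between 3.41 (without P6 replicate 4 or 5) and 5.09 (without P6 replicate 3), and 5.07 without P6 replicate 2.

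**Figure D5:**
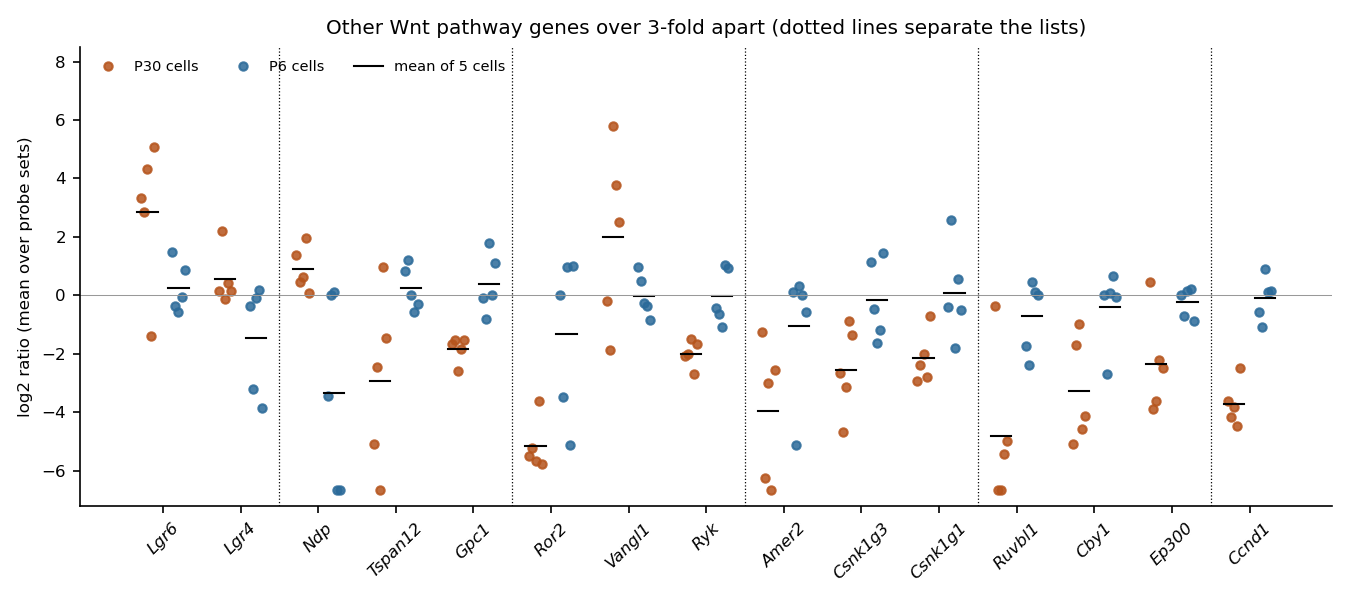
Log2 ratio (mean over the probe sets of a gene) in 5 P30 cells (left, orange) and 5 P6 cells (right, blue) for up to 3 genes of each further pathway list that were over 3-fold apart, with bars at the mean of 5 cells and dotted lines between lists. From left to right the lists are the R-spondin system, extracellular modulators, co-receptors and planar polarity, the destruction complex, nuclear partners and transcriptional targets (Ccnd1).

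Single cells contributed unevenly to the Wnt genes. P30 replicate 5, the cell with the highest endothelial and Purkinje lists, had the lowest P30 value in 22 of 56 Wnt genes (39.3%, beside 28.1% of all genes), and the median deviation of its Wnt genes from the other P30 cells was -0.40 on the log2 scale, beside -0.30 for all genes. P6 replicate 5 had the lowest P6 value in 17 Wnt genes (30.4%, beside 24.9%), and P6 replicate 2 the highest in 19 (33.9%, beside 26.4%). P30 replicate 2 was the highest P30 cell in 17 genes (30.4%, beside 22.8%), among them Wnt6, Sfrp1, Axin1, Fzd3 and Lrp6. The part of transcripts of other cell types in these ranks was not tested.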

How the data were processed

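Each of 10 single cells (5 P30, 5 P6) was hybridised to 1 array. According to the methods, the authors processed the scans with RMA in GeneSpring GX 7.3, set values under 0.01 to 0.01, and then normalised per array (to the 50th percentile) and per probe set (to a median); the deposited values are these linear ratios, with no levels, detection calls or arrays' raw intensities used here. Of 45101 probe sets, 43608 were complete in all cells and 33976 of these were paired with exactly 1 gene (920 of all had several and 9211 none), with symbols updated through Entrez IDs to RefSeq. Ratios under 0.01 were set to 0.01 and log2 values were averaged over probe sets, giving 17927 genes, then over the cells of an age. P30 minus P6 differences over 3-fold were counted, with no test, since each age is 1 sample. Floor values made up 1.88% of P30 and 1.09% of P6 values, and 16 of 1140 values of Wnt genes. No pair of arrays was identical.

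Genes named were those over 3-fold or without overlap, the widest of a role, the smallest difference, cells far from the other 4 of their age, and up to 3 genes over 3-fold in each further list; other members are named for completeness. Members and lists were chosen with earlier results of these data known. Other scalings, floors, summaries and probe set filters, and each cell left out, were tried. The counting steps were tested on simulated data. Python 3.11.15, NumPy 2.4.6, pandas 2.3.3 and Matplotlib 3.10.9 were used.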

Additional observations from a re-analysis of the deposited data

Results flagged for a closer look

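In 9 of 112 sets of 5 cells (8.04%) of Wnt genes, 1 cell lay far from the other 4 of its age by Dixon's criterion. Its usual rate of about 1 in 20 sets holds for normally distributed values, which these ratios need not be. The share over all genes was not computed, so 8.04% cannot be read as an excess in the Wnt genes. At P30, Ctnnb1 stood at -2.60 in replicate 4 (the others between -0.15 and 0.51), Sfrp2 at -5.78 in replicate 4 (-0.61 to 1.16), Dkk1 at -1.71 in replicate 5 (-0.08 to 0.24), Wnt3 at -1.78 in replicate 2 (0.06 to 0.46) and Wnt3a at -1.30 in replicate 1 (0.11 to 0.27), each below the rest. Wnt5b was above the rest in P30 replicate 3, at 0.56 (-2.19 to -1.43). At P6, Fzd1 reached 1.55 in replicate 4 (-0.27 to 0.22), Sfrp4 1.82 in replicate 2 (-0.12 to 0.21) and Tcf7l2 1.90 in replicate 1 (-1.02 to -0.19), each above the rest. All values are log2 ratios averaged over the probe sets of a gene. P30 replicate 4 was the low cell in both Ctnnb1 and Sfrp2, and without it the P30 minus P6 difference was -0.67 in place of -1.23 for Ctnnb1 and -0.07 in place of -1.30 for Sfrp2.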

How the results depend on the processing

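With 1 sample per age, calls rest on size alone, and 5 cells per age limit the precision. The count of Wnt genes over 3-fold higher at P30 was 2, beside 4.93% of all genes. It became 4 with median scaling (beside 6.11% of all genes), 5 with medians over cells (6.38%) and 1 with arithmetic means (6.44%). It was 1 without probe sets ending in _x_at or _s_at (5.02%). Without both P30 replicate 5 and P6 replicate 5, chosen after seeing the data, it was 4 (5.83%). With each cell left out it was 1 to 5 (5.1% to 5.66%). These were 1 without P30 replicate 2, 4 without P30 replicate 4 or 5, and 5 without P6 replicate 4. The count higher at P6 was 7, beside 9.39% of all genes, and became 4 with a floor of 0.1 (6.54%). It was 5 to 9 with each cell left out (9.18% to 10.7%) and 10 without both marker-high cells (10.4%). The median difference of -0.01, beside -0.05 over all genes, became -0.28 with spike scaling, beside -0.33 over all genes. It was -0.07 to 0.15 with each cell left out. The count without overlap was 1, beside 3.54% of all genes. It became 2 with median scaling (4.34%), with spike scaling (4.71%), with medians over probe sets (3.6%) and without both marker-high cells (7.77%). With each cell left out it was 1 to 5 (4.81% to 6.19%). These alternatives were all chosen after seeing the data, and 4 against 5 cells overlap less easily. Calls among the 128 further pathway genes numbered 27, beside 14.3% of all genes, and 23 with median scaling, beside 14.1%. Of all calls, 34.4% were higher at P30, 43.3% with median scaling and 20.7% with spike scaling. The 9 Wnt genes over 3-fold kept their sign, but only Gsk3a stayed over 3-fold in 19 of 19 alternatives, whereas 6 of the other named ones (Dkk1, Dkkl1, Sfrp2, Wnt3, Wnt3a and Wnt5b) changed sign under at least 1 alternative. The causes were not tested. The alternatives that filter or average probe sets could not change Gsk3a, Fzd9 or Dkk2, each measured by 1 probe set without floor values. No paired analysis was possible because the replicate numbers name single cells and no test was made.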
